A study of Mus musculus with 16 samples.

Results

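The livers of mice fed a high-fat diet with a krill extract were set against the livers of mice fed a plain normal diet. The comparison takes 8 of the study's 16 mice, chosen by their feeding label, 4 in each group. All 16 were male C57BL/6J mice, labelled as 4 weeks old and fed for 18 weeks, and each library is the total RNA of 1 whole liver. The normal diet group (N, mice 4, 5, 7 and 8) received D12450B, labelled 10% fat. The extract group on high fat (HFW, mice 34, 36, 38 and 40) received a high-fat diet holding 1% WEPAK, an extract of Pacific krill that dissolves in water. The remaining mice serve as a reference: 4 on the high-fat diet D12451, labelled 45% fat, without extract (HF), and 4 on the normal diet with 1% WEPAK (NW). HFW and N differ both in dietary fat and in extract, and these 2 differences cannot be told apart in a contrast of the 2 groups. The comparison asks how far livers on high fat with extract resemble the normal-diet baseline.

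The liver takes up dietary fat from the circulation, makes fatty acids and glucose, burns fatty acids in mitochondria and peroxisomes, and exports lipid in lipoproteins and as bile acids. A diet rich in fat is known to load hepatocytes with triglyceride and to shift the transcripts of these pathways. Transcription factors of the SREBP and PPAR families carry much of this response.

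Transcripts were counted by SuperSAGE, in which each polyadenylated RNA is represented by a short tag beside its last CATG, the site cut by NlaIII. A tag reports how many copies were counted and not how long the transcript is. The tags named below were predicted here from the reference transcripts, as a 26-base window from the last CATG on the sense strand of the GRCm38 mouse genome with the GENCODE M21 annotation. The authors' way of matching tags to genes is not stated in the sources used. Whether the tags counted for a gene have its predicted sequence was not tested. The predicted tags of 7 genes among those with the smallest p values in either direction are shown. The NlaIII site is in capitals and the rest in lower case, 5′ to 3′.
Acox2: CATGaaaggatgttcatcatattatt
Ccdc107: CATGgagggcgctggccccgtgttga
Igfals: CATGgctgctcacttcctggatgcag
Kdelr1: CATGtttttgtacagaatttgatggc
Plscr1: CATGtatttgtttttatacattctta
Slc10a1: CATGtctagggtttctttaatttgga
Tsku: CATGggtggggaccctaggtccggtg
The Acox2 tag lies at chr14:8225623-8225648 on the minus strand, in exon 15 of 15. The Igfals tag lies at chr17:24881862-24881887 on the plus strand, in exon 2 of 2, and the Kdelr1 tag at chr7:45883662-45883687 on the plus strand, in exon 5 of 5. The Plscr1 tag lies at chr9:92271780-92271805 on the plus strand, in exon 9 of 9. The Slc10a1 tag lies at chr12:80955665-80955690 on the minus strand, in exon 4 of 4, and the Tsku tag at chr7:98351336-98351361 on the minus strand, in exon 2 of 2. These 6 tags lie in 3′ untranslated sequence. The Ccdc107 tag, at chr4:43493430-43493455 on the plus strand, is different: it starts in exon 1 of 6, across untranslated and coding sequence, because that transcript has 1 CATG. None of the 7 predicted tags was found in another gene. For Slc13a3 and Bag4, also among the genes with the smallest p, the last CATG stands 14 and 9 bases before the transcript end, too close for a full tag. The same holds for 4 genes described further on, Cyp4a14 and Apof with 6 bases, Hpx with 4 and Col1a1 with 18.

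The 8 libraries held 56655 to 101481 tags in named genes, with means of 75963 ± 16768 in N and 75749 ± 21588 in HFW (SD, n = 4). The HF libraries were deeper, at 118882 ± 23746 tags. Values below are CPM, tag counts scaled to the normalized total of the 1046 genes tested, and are given in the order of the mouse numbers above. A single tag was worth 10.8 to 18.8 CPM in N and 10.6 to 21.0 CPM in HFW. Hepatocyte markers such as Alb and Ttr summed to 10922 to 18463 CPM in N and 13079 to 14950 CPM in HFW, so the labelled tissue was seen in every library. N mice 4 and 8 lay farther from the other N mice than mice 5 and 7 did.

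No gene passed an adjusted p of 0.05 between the HFW and the N livers. By edgeR's quasi-likelihood test with Benjamini-Hochberg adjustment, 0 of 1046 genes were called (0.0%), and the smallest adjusted p was 0.0678. At an unadjusted p under 0.05 there were 129 genes (12.3%), of which 53 had higher values in HFW (5.07%) and 76 had lower values (7.27%). On the same genes limma-voom called 0 and the Wald test of DESeq2 called 6. They were Slc13a3 and Tsku, with higher values in HFW, and Igfals, Kdelr1, Slc10a1 and Ccdc107, with lower values. The HFW mice all lay above all N mice for 25 genes (2.39%) and all below them for 27 (2.58%), together 52 genes (4.97%). Without N mouse 8, the edgeR test called 7 genes, 4 higher and 3 lower.

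That no gene passed does not show that the 2 groups were alike. The 95% interval of the log2 fold change stayed within a 2-fold change in either direction for 453 genes (43.3%) and reached past it for 593. The median half-width of the interval was 0.73 on the log2 scale. Among the 161 genes with a mean of at least 1000 CPM, the interval stayed within 2-fold for 111 (68.9%). The median log2 fold change over all tested genes was 0.00, with 525 positive and 521 negative values.

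**Figure D1:**
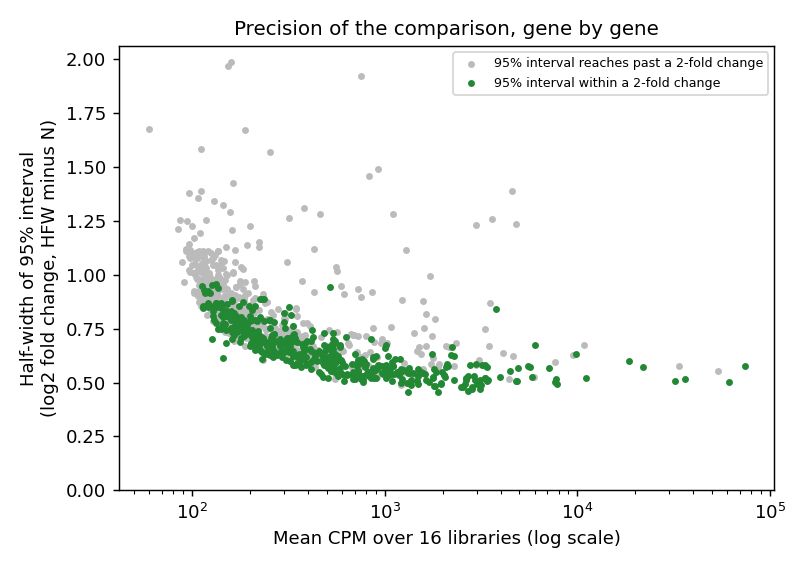
Half-width of the 95% interval of the HFW minus N log2 fold change (vertical axis) against the mean CPM over 16 libraries (horizontal axis, log scale), 1 point per tested gene. Green points are the 453 genes whose interval stayed within a 2-fold change, and intervals narrow as the tag level rises.

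Among the genes with the smallest p and higher values in HFW were Slc13a3, Tsku, Acox2 and Plscr1. Slc13a3, a sodium-coupled transporter of dicarboxylates such as succinate, measured 218, 258, 179 and 225 CPM in the N mice and 472, 592, 652 and 563 CPM in the HFW mice. Every HFW mouse lay above every N mouse, with a log2 fold change of 1.35 (SE 0.31, edgeR adjusted p = 0.0678). Tsku, a secreted leucine-rich proteoglycan made by the liver, measured 202, 172, 209 and 319 CPM in N and 341, 651, 757 and 499 CPM in HFW. Its groups did not overlap either, at a log2 fold change of 1.31 (SE 0.33, edgeR adjusted p = 0.0678). Acox2, the peroxisomal oxidase of branched fatty acids and bile acid intermediates, measured 134, 151, 194 and 394 CPM in N and 419, 572, 505 and 563 CPM in HFW. N mouse 8 came closest to the HFW mice without reaching them, and the log2 fold change was 1.27 (SE 0.34, edgeR adjusted p = 0.0916).

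Plscr1, an interferon-inducible phospholipid scramblase, measured 84.0, 75.4, 74.7 and 188 CPM in N and 485, 118, 336 and 202 CPM in HFW, with a log2 fold change of 1.49 (SE 0.44, edgeR adjusted p = 0.142). N mouse 8 lay above HFW mouse 36 here.

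The 5 genes with the smallest p and lower values in HFW were Igfals, Ccdc107, Slc10a1, Kdelr1 and Bag4. Igfals, the subunit that holds IGF and its binding protein in a long-lived complex in plasma, measured 3764, 1573, 1330.5 and 1238 CPM in N and 655, 730.3, 1009 and 712 CPM in HFW. All 4 HFW mice lay below all 4 N mice, with a log2 fold change of -1.35 (SE 0.32, edgeR adjusted p = 0.0678). N mouse 4 had more than 2-fold the level of any other N mouse, and without it the log2 fold change was -0.86. Slc10a1, the transporter that takes bile acids up from portal blood, measured 924, 1174, 1046 and 1238 CPM in N and 301, 533, 357 and 669 CPM in HFW. Its groups did not overlap, at a log2 fold change of -1.22 (SE 0.31, edgeR adjusted p = 0.0678).

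Kdelr1, the receptor that returns escaped proteins from the Golgi to the endoplasmic reticulum, measured 3663, 1346, 1271 and 844 CPM in N and 930.5, 612, 673 and 425 CPM in HFW. The lowest N mouse, mouse 8, lay below HFW mouse 34, and the log2 fold change was -1.43 (SE 0.36, edgeR adjusted p = 0.0678). Leaving out N mouse 4 brought it to -0.83. Ccdc107, a coiled-coil membrane protein, measured 353, 388, 254 and 150.1 CPM in N and 65.5, 98.7, 63.1 and 138 CPM in HFW, with a log2 fold change of -1.61 (SE 0.39, edgeR adjusted p = 0.0678). Bag4, a co-chaperone of HSP70, measured 622, 431, 359 and 375 CPM in N and 275, 158, 168 and 117 CPM in HFW, with a log2 fold change of -1.30 (SE 0.34, edgeR adjusted p = 0.0764). Neither gene's groups overlapped. Of these 9 genes, 4 higher and 5 lower, the mice did not overlap for 7 and overlapped for 2. Over all tested genes the mice did not overlap for 52 of 1046 (4.97%). The 9 genes were picked by p in this same contrast, so their count adds no evidence for them. The rule allowed up to 5 genes per direction, and not every higher gene that met it is among the 9.

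**Figure D2:**
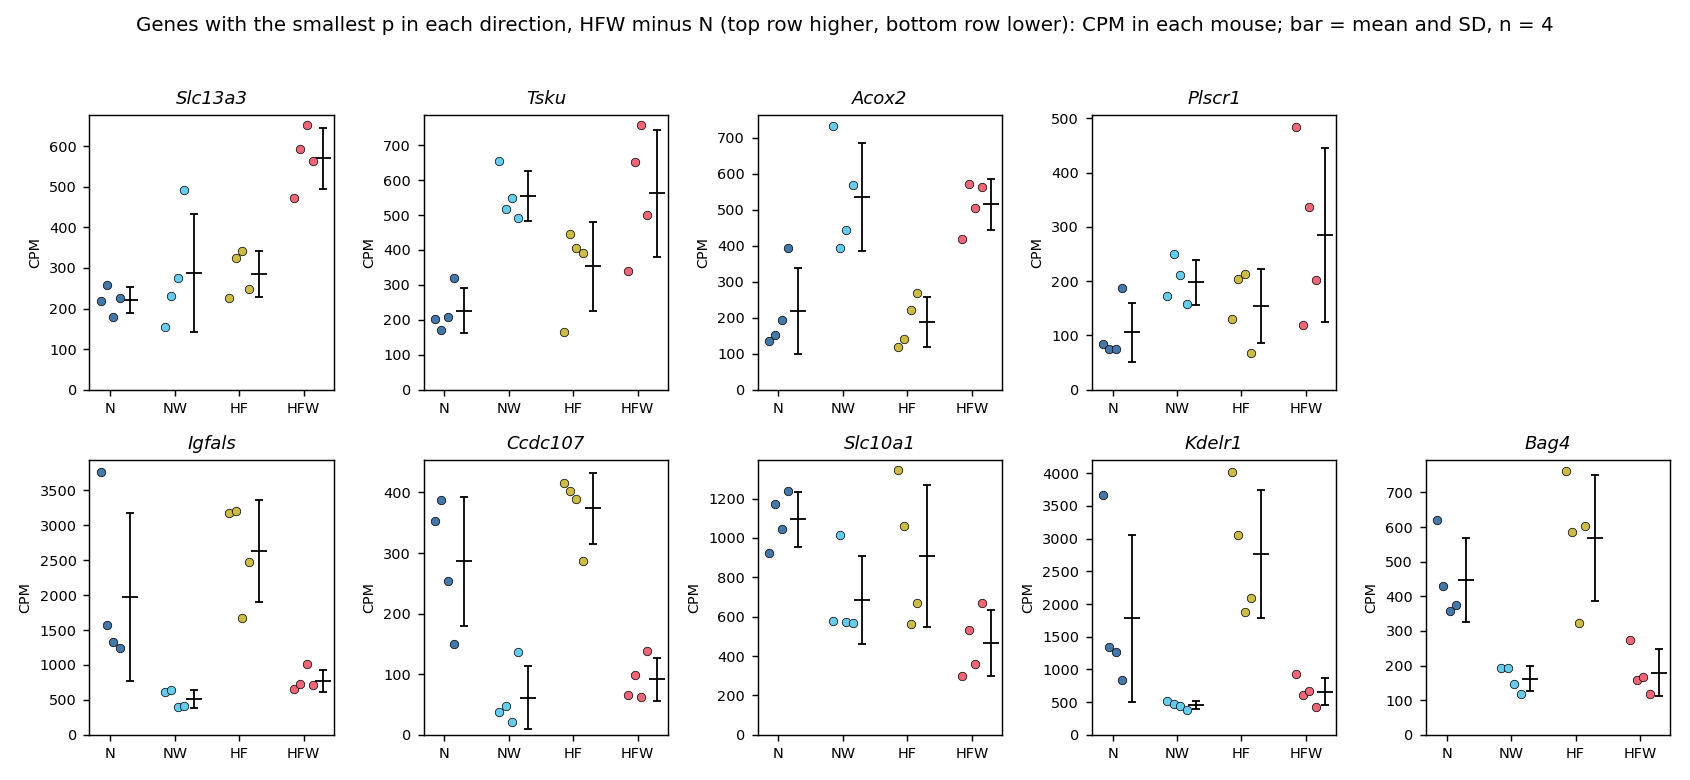
CPM of each mouse (points, vertical axis from 0) with the mean and SD (bars, n = 4) in the 4 feeding groups. The 9 genes are among those with the smallest p in each direction, 4 with higher values in HFW (top row) and 5 with lower values (bottom row). Slc13a3 runs from 179 to 258 CPM in N and from 472 to 652 CPM in HFW, while Slc10a1 runs from 924 to 1238 CPM in N and from 301 to 669 CPM in HFW.

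The whole profile of each liver was set against the mean of the N livers, as the root mean square difference in log2 CPM over the 1046 genes after thinning every library to 56655 tags. The HFW mice lay at 0.628, 0.567, 0.667 and 0.669, and the N mice, each against the mean of the other 3, at 0.732, 0.549, 0.509 and 0.676. The ranges of HFW and N therefore overlapped, with means of 0.633 ± 0.0475 and 0.617 ± 0.105 (SD, n = 4). The HF mice, on high fat without extract, lay at 0.612, 0.661, 0.660 and 0.505, with a mean of 0.610 ± 0.0735. HFW exceeded HF by 0.0234, and an exact permutation test over the 8 mice gave a two-sided p of 0.571, where 4 against 4 mice can reach 0.0286 at the lowest. The difference was smaller than the spread between mice of either group. The order of HFW and HF turned on single mice: the difference was 0.0921 without N mouse 8 (exact p = 0.0286), -0.0727 without N mouse 4 (exact p = 0.2) and -0.0115 without HF mouse 29 (exact p = 0.743). The NW mice lay at 0.711 to 0.812.

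Between single livers, the mean distance was 0.782 over the 16 pairs of an N and an HFW mouse, 0.757 over the 6 pairs within N and 0.721 over the 6 pairs within HFW. Over the 16 pairs of an N and an HF mouse, on high fat without extract, the mean was 0.763. The mean over the 16 pairs of an HF and an HFW mouse was 0.875, and over the 16 pairs of an NW and an HFW mouse it was 0.760. These pairs share mice and are given without a test.

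The remaining results describe the 28 lists of liver pathways and functions by their tested members. No member of any list passed the test, so counts at an unadjusted p under 0.05 are given and read against the 12.3% of all tested genes. Fewer cells of a type and less RNA per cell cannot be told apart in whole-liver RNA.

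Genes of fatty acid and triglyceride synthesis had a median log2 fold change of -0.13 over 8 tested of 24 listed, with 0 higher and 1 lower at an unadjusted p under 0.05. The 1 was Acly, which makes cytosolic acetyl-CoA from citrate, at 521, 646, 269 and 169 CPM in N and 183, 158, 168 and 372 CPM in HFW (log2 fold change -0.83, edgeR adjusted p = 0.345). The value was -0.48 without N mouse 5 and -1.25 without HFW mouse 40. Mice 7 and 8 of N overlapped with HFW. Scd1, the desaturase that makes oleate, measured 9561, 12882, 9044 and 6905 CPM in N and 10537, 4875, 6623 and 4186 CPM in HFW (log2 fold change -0.55, 95% interval -1.14 to 0.04). HFW mouse 34 lay within the N range and the others below it, and without that mouse the value was -0.85. Fasn, the fatty acid synthase, ran from 619 to 2639 CPM in N and from 1401 to 2271 CPM in HFW (log2 fold change 0.50, 95% interval -0.38 to 1.38), and from 0.31 without N mouse 8 to 1.08 without N mouse 5. Srebf1, which encodes the transcription factor SREBP-1 above these genes, ran from 1163 to 3673 CPM in N and from 1007 to 2660.4 CPM in HFW, with a log2 fold change of -0.28 that became 0.10 without N mouse 5. Fads1, a desaturase of polyunsaturated fatty acids, ran from 1257 to 5084 and from 1158 to 2481 CPM (log2 fold change -0.67, and -0.22 without N mouse 5). The lipid droplet and lipolysis genes had a median of -0.27 over 5 tested, with none at an unadjusted p under 0.05 by edgeR.

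The mitochondrial oxidation and ketogenesis list had a median of -0.13 over 11 tested of 24, with 1 higher and 1 lower at an unadjusted p under 0.05. That median was 0.19 without N mouse 4, 0.12 without HFW mouse 34 and -0.34 without HFW mouse 36, so its sign turned on single mice. The higher was Acads, the short-chain acyl-CoA dehydrogenase, at 202, 151, 239 and 281 CPM in N and 315, 474, 484 and 351 CPM in HFW, without overlap (log2 fold change 0.89, edgeR adjusted p = 0.283). The list of peroxisomal oxidation and PPARα targets had a median of -0.26 over 13 tested of 27, with 1 higher, Acox2, and 3 lower. That median turned to 0.25 with libraries thinned to equal totals, over the 9 members that passed the filter there. It turned to 0.19, over 8 members, when the N and HFW libraries were fitted alone. The genes behind these medians are thus not the same 13.

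The 3 lower genes were Cyp4a14, Ehhadh and Cat. Cyp4a14, an omega-hydroxylase of fatty acids and a textbook PPARα target, measured 1747, 819, 1539.8 and 1764 CPM in N and 354, 553, 315 and 446 CPM in HFW. No HFW mouse reached the lowest N mouse (log2 fold change -1.80, SE 0.60, edgeR adjusted p = 0.243), and Cyp4a14 was the only gene called when the 2 groups were fitted alone (adjusted p = 0.0116). Ehhadh, the peroxisomal bifunctional enzyme, ran from 151 to 338 CPM in N and from 42.1 to 217 CPM in HFW (log2 fold change -1.15, edgeR adjusted p = 0.341). Catalase, encoded by Cat, ran from 162 to 300.2 and from 63.7 to 257 CPM (log2 fold change -0.95). The groups overlapped for Ehhadh and for Cat, with HFW mouse 36 the highest of its group each time.

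Some genes are given here for HF as well. These contrasts share the N, HF or HFW mice, so their values are given side by side, with no test between them. HF minus N had 1 gene past an adjusted p of 0.05 (0.0956%) and HFW minus HF had 103 (9.85%). Pcsk6, a proprotein convertase of the furin family, was the 1 gene: it measured 809, 692, 240.5 and 259 CPM in HF mice 23, 25, 28 and 29 (HF minus N log2 fold change 2.24, edgeR adjusted p = 0.0281). In N it measured 252, 75.4, 44.8 and 56.3 CPM and in HFW 78.6, 79.0, 168 and 85.0 CPM, and HFW minus N was -0.08. The 95% interval of that value, -1.22 to 1.05, reached past 2-fold on both sides, and its sign turned without N mouse 4 or without any of HFW mice 34, 36 and 40, most without N mouse 4, at 0.68.

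Glucose metabolism was covered by 10 tested genes (gluconeogenesis, glycolysis and insulin response), with a median of 0.18 in HFW minus N, beside -0.38 in HF minus N and 0.59 in HFW minus HF. None had an unadjusted p under 0.05 by edgeR in HFW minus N. Other lists differed in how their medians in HFW minus N and HF minus N compared, and not all are given. Lipoproteins had 0.13 and -0.23, on opposite sides of N. Both medians lay below N for lipid droplets and lipolysis (-0.27 and -0.29), bile acids (-0.25 and -0.24) and complement, coagulation and acute phase (-0.26 and -0.20). Fbp1, fructose-1,6-bisphosphatase of gluconeogenesis, ran from 1546 to 3867 CPM in N, from 1545 to 2352 CPM in HF and from 2151 to 5333 CPM in HFW. Its log2 fold change was 0.45 in HFW minus N (95% interval -0.13 to 1.02, 0.23 without N mouse 4 and 0.68 without HFW mouse 36) and 1.06 in HFW minus HF. Pck1, which makes phosphoenolpyruvate for glucose synthesis, ran from 302 to 901 CPM in N, from 231 to 412 CPM in HF and from 393 to 904 CPM in HFW. Its HFW minus N value of 0.09 had a 95% interval of -0.57 to 0.76 and became -0.24 without HFW mouse 34, the highest of its group. Slc2a2, the glucose transporter GLUT2, ran from 269 to 582 CPM in N and from 375 to 673 CPM in HFW (log2 fold change 0.59, edgeR adjusted p = 0.409).

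Acaa2, the mitochondrial thiolase of β-oxidation, ran from 168 to 488 CPM in N, from 113 to 220.2 CPM in HF and from 336 to 631 CPM in HFW. The HF and N mice overlapped, as they did for Fbp1 and Pck1. The HFW minus N log2 fold change was 0.50, from 0.30 without N mouse 4 to 0.81 without N mouse 8, and the HF minus N value -0.99. For Scd1 the HF mice ran from 2902 to 4994 CPM, with -1.25 in HF minus N beside -0.55 in HFW minus N. Dus1l, a tRNA dihydrouridine synthase, lay above its N range: it measured 168, 302, 329 and 394 CPM in N and 550.4, 533, 547 and 765 CPM in HFW, without overlap (log2 fold change 1.02, edgeR adjusted p = 0.146). In HF minus N it was -0.61.

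Genes of lipoproteins and plasma lipid transfer had a median of 0.13 over 13 tested of 23, with 1 higher and 1 lower at an unadjusted p under 0.05. The lower was Lcat, which esterifies cholesterol on high-density lipoprotein, at 8452, 2854, 3498 and 2571 CPM in N and 2477, 2329, 1871 and 1668 CPM in HFW. The groups did not overlap (log2 fold change -1.06, SE 0.33, edgeR adjusted p = 0.161), and without N mouse 4, the highest of all, the value was -0.52. The higher was Apof, an inhibitor of lipid transfer, which ran from 252 to 582 CPM in N and from 419 to 829 CPM in HFW (log2 fold change 0.65). Apoa2, a structural protein of high-density lipoprotein and among the 6 genes of highest mean level, measured 54322, 44537, 53458 and 74282 CPM in N and 39604, 73681, 69115 and 70443 CPM in HFW (log2 fold change 0.16, 95% interval -0.34 to 0.66). For this gene the interval stayed within 2-fold, with values from 0.070 without N mouse 5 to 0.35 without HFW mouse 34.

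Cholesterol synthesis and uptake had 1 higher and 0 lower among 3 tested of 23, with a median of 0.40. Bile acid synthesis and transport had 4 tested of 21, with Slc10a1 the 1 lower gene and a median of -0.25.

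In the urea cycle and amino acid catabolism list, 0 of 15 tested were higher and 3 lower at an unadjusted p under 0.05, with a median of -0.07 and 6 positive and 9 negative values. Arg1, the arginase of the urea cycle, ran from 2345 to 4998 CPM in N and from 1871 to 2656 CPM in HFW (log2 fold change -0.76). Gpt2, a mitochondrial alanine aminotransferase, ran from 140.0 to 353 and from 138 to 210.3 CPM (log2 fold change -0.77).

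The methionine, sulfur and one-carbon list had a median of 0.03 over 13 tested of 24, with 1 higher and 2 lower and with 9 positive and 4 negative values. The higher was Shmt2, which feeds serine carbon into mitochondrial folate, from 521 to 2477 CPM in N and from 2348 to 3415 CPM in HFW (log2 fold change 0.82, and 0.53 without N mouse 4). The lower genes, Tst and Sqrdl, both act in mitochondrial sulfide metabolism. Tst, a sulfurtransferase of mitochondria, ran from 822 to 1848 CPM in N and from 442 to 849 CPM in HFW (log2 fold change -0.93, edgeR adjusted p = 0.244). Sqrdl, the sulfide quinone reductase, measured 286, 269, 359 and 375 CPM in N and 157, 197, 210.3 and 191 CPM in HFW, without overlap (log2 fold change -0.77, edgeR adjusted p = 0.296). Cbs, which begins the conversion of homocysteine to cysteine, ran from 252 to 711 CPM in N, from 148 to 345 CPM in HF and from 296 to 903 CPM in HFW (HFW minus N 0.58, 95% interval -0.10 to 1.26). That value ran from 0.38 without HFW mouse 40 or N mouse 4 to 0.96 without N mouse 5.

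Antioxidant enzymes and selenoproteins had 1 higher and 4 lower among 9 tested of 35, with a median of -0.12. Sephs2, which makes the selenium donor for selenoproteins, measured 1949, 1142, 1241 and 863 CPM in N and 891, 533, 505 and 244 CPM in HFW (log2 fold change -1.26, SE 0.37, edgeR adjusted p = 0.144). HFW mouse 34 lay above N mouse 8. Cat, described above, was another of the lower genes, and Gpx1, a glutathione peroxidase named here after its value was seen, had a log2 fold change of -0.60. Sod2, the mitochondrial superoxide dismutase, ran from 131 to 1159 CPM in N and from 126 to 266 CPM in HFW (log2 fold change -1.43, and -0.67 without N mouse 4), and its predicted tag also occurs in 1 other gene. Gpx4, the glutathione peroxidase of lipid hydroperoxides, ran from 36922 to 53832 CPM in N and from 32539 to 89049 CPM in HFW (log2 fold change 0.55, 95% interval -0.00 to 1.10, and 0.37 without HFW mouse 38), again with a tag found in 1 other gene. The higher gene was Prdx4, a peroxiredoxin of the endoplasmic reticulum, from 119.6 to 215 CPM in N and from 197 to 382 CPM in HFW (log2 fold change 0.71, and 0.45 without HFW mouse 40).

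Cytochrome P450 genes had 1 higher and 1 lower among 14 tested of 46, with a median of -0.10. The lower was Cyp2c29, an arachidonate epoxygenase, at 807, 1012, 463 and 919 CPM in N and 183, 513, 84.1 and 382 CPM in HFW (log2 fold change -1.45, edgeR adjusted p = 0.239). HFW mouse 36 overlapped with N mouse 7. The higher was Cyp2d10, from 140.0 to 469 CPM in N and from 406 to 673 CPM in HFW (log2 fold change 0.69, and 0.41 without N mouse 5). Conjugation enzymes had none at an unadjusted p under 0.05 by edgeR among 11 tested of 43, with a median of 0.17. Nr1i3, the nuclear receptor CAR that regulates many of these enzymes, ran from 84.0 to 205 CPM in N and from 105 to 404 CPM in HFW (log2 fold change 0.81, and 0.49 without HFW mouse 40).

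Secreted carriers and hepatokines had 2 higher and 2 lower among 13 tested of 29, with a median of 0.22. Beside Igfals, the lower was Mup21, a major urinary protein, at 638, 711, 643 and 1820.0 CPM in N and 249, 671, 210.3 and 255 CPM in HFW (log2 fold change -1.47, edgeR adjusted p = 0.183). N mouse 8 was the high one, and without it the value was -0.94. Major urinary proteins are near-identical copies, and the predicted Mup21 tag occurs in 1 other gene, so its tags may be shared. The higher were Hpx, the plasma carrier of heme, which ran from 605 to 1238 and from 669 to 2451 CPM (log2 fold change 0.75, and 0.44 without HFW mouse 34), and Igfbp4, an IGF binding protein. Igfbp4 is uncertain because its predicted tag occurs in 202 other genes.

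Complement, coagulation and acute phase genes had 0 higher and 1 lower among 24 tested of 56, with a median of -0.26. The 1 was Hc, complement component C5, which ran from 244 to 319 CPM in N and from 126 to 255 CPM in HFW (log2 fold change -0.64). The 5 tested of 30 inflammation and interferon genes all had positive values, with a median of 0.37, and 2 were higher at an unadjusted p under 0.05. Irf1, an interferon-induced transcription factor, measured 151, 215, 463 and 375 CPM in N and 655, 592, 609.8 and 457 CPM in HFW (log2 fold change 0.94, edgeR adjusted p = 0.183). HFW mouse 40 alone overlapped with N. H2-K1, a class I antigen-presenting molecule, ran from 588 to 851 and from 642 to 1514 CPM (log2 fold change 0.68), with a predicted tag found in 1 other gene.

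In the endoplasmic reticulum list, Kdelr1 was the 1 lower gene of 12 tested of 44 and 0 were higher, while the median was 0.25 with 9 positive and 3 negative values. Oxidative phosphorylation had 2 higher and 2 lower among 7 tested of 82. Ndufb9, a subunit of complex I, measured 1327, 1325, 1106 and 1876 CPM in N and 708, 1007, 715 and 627 CPM in HFW, without overlap (log2 fold change -0.89, edgeR adjusted p = 0.173). Uqcrfs1, the Rieske protein of complex III, went the other way, from 53.9 to 135 CPM in N and from 78.6 to 297 CPM in HFW (log2 fold change 1.13, and 0.73 without HFW mouse 40). Atp5j2, a subunit of ATP synthase, had a log2 fold change of -0.72, and Slc25a5, an ADP/ATP carrier, had 0.73. Fh1, the fumarase of the citrate cycle, ran from 113 to 237 and from 39.5 to 118 CPM (log2 fold change -1.20).

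Of the circadian clock genes 3 of 19 were tested, with 1 higher and 1 lower at an unadjusted p under 0.05. The lower was Nr1d1, which encodes the clock repressor REV-ERBα and measured 420.1, 495, 284 and 300.2 CPM in N and 236, 217, 210.3 and 117 CPM in HFW, without overlap (log2 fold change -0.99, SE 0.33, edgeR adjusted p = 0.183). The labels give no time of day for tissue collection, and its part in these values was not tested. Periportal hepatocyte genes had a median of -0.36 over 8 tested, with 0 higher and 1 lower, Arg1. Pericentral genes had a median of 0.12 over 8 tested, with 1 higher and 0 lower. The 1 was Slc1a2, a glutamate transporter, which ran from 16.8 to 149 CPM in N and from 118 to 273 CPM in HFW (log2 fold change 1.09).

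The remaining lists had few tested members. Mitochondrial ribosome genes had 0 higher and 1 lower, Mrps14, among 3 tested, at 1596, 937, 523 and 657 CPM in N and 446, 572, 589 and 436 CPM in HFW (log2 fold change -0.88, and -0.51 without N mouse 4). Translation factors had 1 higher and 0 lower among 7 tested, with Eef2, the factor that moves the ribosome along the message, at 0.52 and a list median of -0.14. Iron handling had 1 higher, Hpx, among 5 tested, and the growth hormone and IGF axis had Igfbp4 higher and Igfals lower among 3 tested. Proteasome and ubiquitin genes had none at an unadjusted p under 0.05 by edgeR among 4 tested, with a median of -0.13. Lars2, the gene of the mitochondrial leucyl-tRNA synthetase, was among the 6 genes of highest mean level. It ran from 43048 to 117849 CPM in N and from 63291 to 90083 CPM in HFW (log2 fold change 0.10, 95% interval -0.48 to 0.67). The log2 fold change ran from -0.080 without N mouse 4 to 0.51 without N mouse 8. Whether all tags assigned to Lars2 came from its own transcript was not tested. Some list medians, each over the members that passed the filter in that fit, also changed sign when 1 mouse was left out. They did so for fatty acid synthesis (0.04 without N mouse 5), bile acids (0.05 without N mouse 8), urea cycle and amino acids (0.12 without HFW mouse 38), antioxidants (0.023 without N mouse 5) and mitochondrial ribosome (0.089 without N mouse 4). They did so too for methionine and sulfur (-0.062), conjugation (-0.060), pericentral genes (-0.24) and oxidative phosphorylation (-0.011), each without HFW mouse 40, for cytochrome P450 (0.026 without HFW mouse 36) and for the clock list (-0.038 without N mouse 4).

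**Figure D3:**
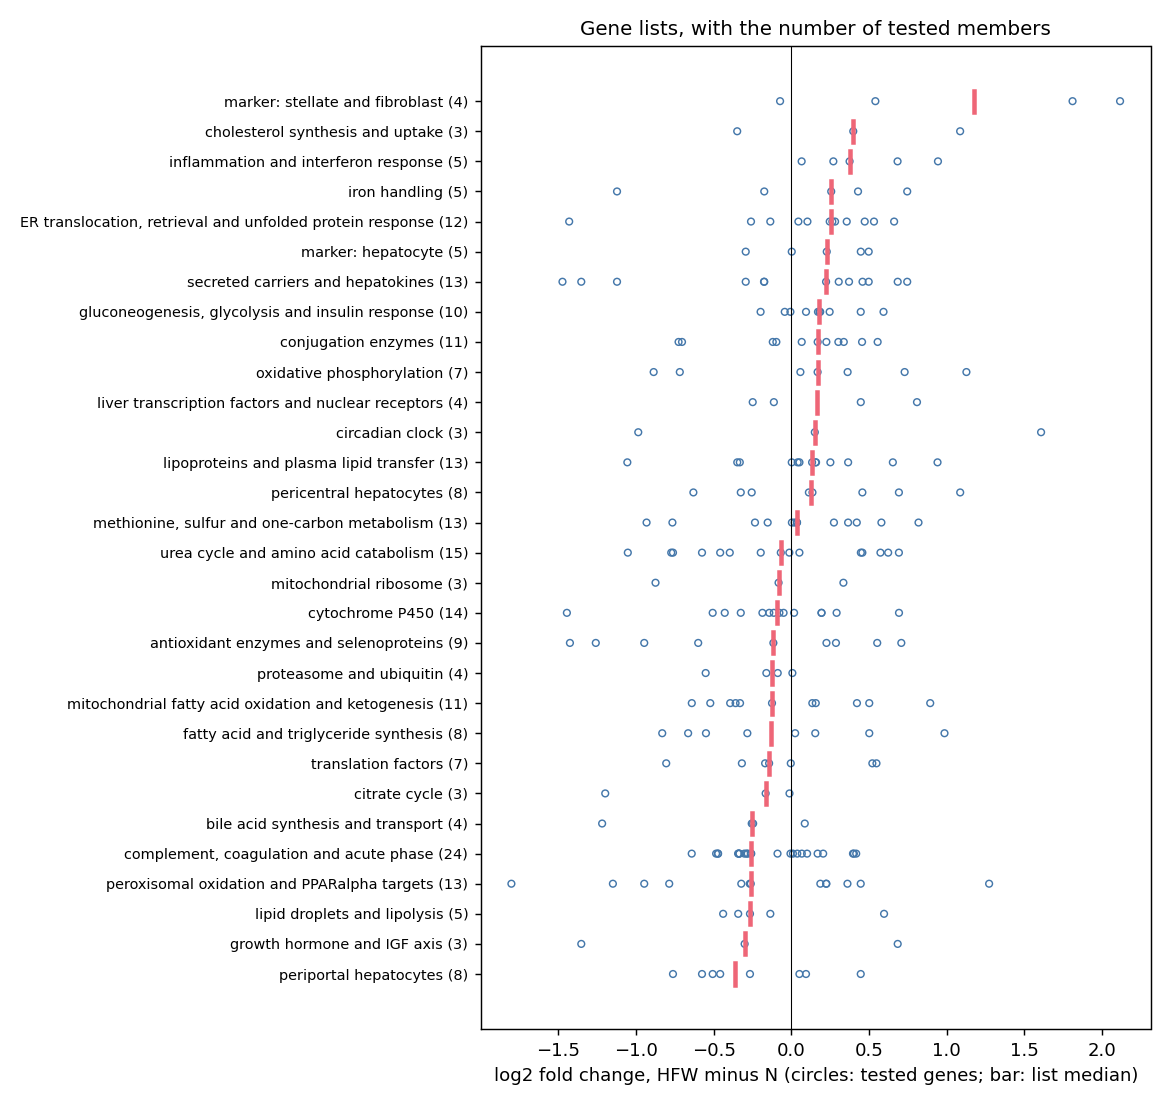
HFW minus N log2 fold change (horizontal axis) of each tested member (points) of the pathway lists (rows), with the list's median. Points spread on both sides of 0 in most lists, the 5 inflammation and interferon genes all lie above 0, and no gene passed an adjusted p of 0.05.

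Markers of cells other than hepatocytes were mostly sparse. Stellate cell and fibroblast markers had 4 tested of 10, of which 2 were higher at an unadjusted p under 0.05, with a median of 1.17. That median was 0.63 without HFW mouse 34. The 3 positive values were those of the collagens below. Reln, the other tested marker, had a negative value, with 29 tags in N and 27 in HFW. Their summed level ran from 619 to 1210 CPM in N, from 618 to 4505 CPM in HF and from 967 to 4626 CPM in HFW. In HF minus N, which shares the N mice, the median was 1.06, and in HFW minus HF it was 0.11. Col3a1, a fibrillar collagen, measured 723, 452, 463 and 244 CPM in N and 2988, 711, 1998 and 924 CPM in HFW (log2 fold change 1.81, SE 0.70, edgeR adjusted p = 0.314). HFW mice 34 and 38 were the high ones. Col1a1 measured 33.6, 96.9, 74.7 and 93.8 CPM in N and 760.1, 59.2, 336 and 159 CPM in HFW (log2 fold change 2.12, and 1.26 without HFW mouse 34), high in the same mice. Col1a2, its partner chain in type I collagen, measured 721, 158, 147 and 117 CPM in HFW and ran from 129 to 336 CPM in N, and its log2 fold change of 0.54 became -0.52 without HFW mouse 34. Kupffer cell markers summed to 840 to 1107 CPM in N and 572 to 1442 CPM in HFW, and endothelial markers to 300 to 404 and 351 to 493 CPM. Neutrophil, adipocyte, pancreatic and skeletal muscle markers were at 0 tags in all 8 mice.

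The HFW minus N values can be set beside mice that enter neither group. NW minus HF compares the normal diet with extract against high fat without it, so it holds the extract difference in the same direction and the fat difference in the opposite one. It shares no library with HFW minus N, although both use the spread estimated from all 16 libraries. In NW minus HF, 350 of 1046 genes passed an adjusted p of 0.05 (33.5%), 168 higher (16.1%) and 182 lower (17.4%). Of the 129 genes at an unadjusted p under 0.05 in HFW minus N, 110 had the same sign in NW minus HF (85.3%), compared with 698 of all 1046 genes (66.7%). Among the 129, 66 passed in NW minus HF in the same direction (51.2%) and 0 in the opposite direction, compared with 296 (28.3%) and 54 (5.16%) of all tested genes. Across the 1046 genes, which are not independent, the log2 fold changes of the contrasts had a Pearson correlation of 0.50 and a Spearman correlation of 0.49, given as a description.

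The 9 genes reported above were among those with the smallest p in each direction. Of these 9, 5 passed in NW minus HF in the same direction and 4 did not pass. Igfals had log2 fold changes of -1.35 in HFW minus N and -2.32 in NW minus HF (edgeR adjusted p = 1.3e-05), and its NW mice measured 616, 643, 402 and 412 CPM against 3175, 3207, 1665 and 2479.9 CPM in HF. Kdelr1 fell as well, with -2.60 in NW minus HF, as did Ccdc107 with -2.61 and Bag4 with -1.76. Acox2 rose by 1.48 (edgeR adjusted p = 0.00098).

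The other 4 were Slc13a3, Tsku, Plscr1 and Slc10a1. Of these, NW minus HF values are given here for Slc13a3 and Slc10a1 only, and they do not stand for Tsku and Plscr1. Slc13a3 had a log2 fold change of -0.02 in NW minus HF (95% interval -0.65 to 0.60) beside 1.35 in HFW minus N. Slc10a1 had -0.38 (95% interval -0.98 to 0.22) beside -1.22, and Cyp4a14 had -0.34 (95% interval -1.52 to 0.84) beside -1.80. Whether the values of a gene differ between these contrasts was not tested. Of the genes given for HF above, Pcsk6 fell in NW minus HF, at -3.03, and Acaa2 rose by 2.22, Cbs by 2.10 and Pck1 by 1.74.

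**Figure D4:**
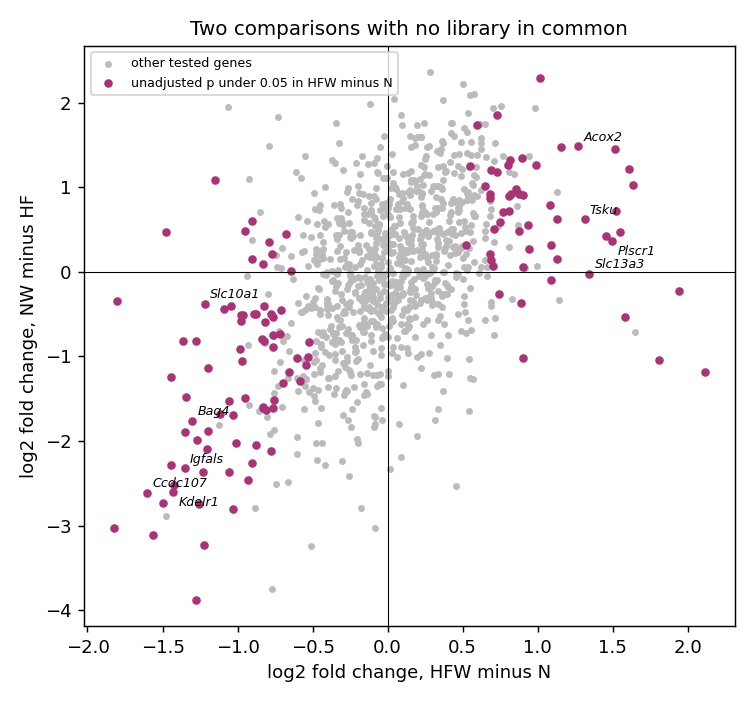
Log2 fold change in HFW minus N (horizontal axis) against NW minus HF (vertical axis), 1 point per tested gene. The 9 genes labelled are among those with the smallest p in each direction, and the contrasts share no library. Igfals, Kdelr1, Ccdc107 and Bag4 lie low in both, while Slc13a3 and Slc10a1 lie near 0 on the vertical axis.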

How the data were processed

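Per the labels' protocols, liver total RNA was converted to cDNA, cut with NlaIII and then EcoP15I to release tags, and amplified by PCR with index adapters. The authors deposited raw tag counts per RefSeq transcript with 1 column for each mouse, per the file headers. No aligner or RefSeq release is given in the sources used here. No molecular identifiers are named, so PCR copies cannot be told from molecules. Each library is 1 mouse, and p-values measure the spread between mice.

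Of 26782 rows, 417 without a symbol (0.0729% of tags) were left out, and 40 of 41 symbols turned into dates were recovered through RefSeq identifiers. Tags were added up by symbol (20826 symbols, 10171 with a tag). Libraries held 56655 to 149349 tags. The model was fitted with edgeR 4.0.16 (R 4.3.3): the default expression filter (minimum count 10) kept 1046 genes, which held 87.5 to 89.6% of named tags, followed by trimmed mean of M-values scaling and a quasi-likelihood model (robust option) over the 16 libraries in which each feeding group has its mean. P-values were adjusted by the Benjamini-Hochberg method at 0.05. A gene enters the test only if enough libraries hold it, so list counts cover tested members, not all listed ones. Standard errors are approximate, being the size of the log2 fold change over the root of its F statistic. Distances used log2 CPM with a prior count of 2. Alternatives were DESeq2 1.42.0, limma-voom (limma 3.58.1), other scalings and filters, thinning, and leaving out mice. The statistics were tested on simulated data.

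Named genes were up to 5 per direction with the smallest p, up to 4 members per list with the smallest p, the 6 genes of highest mean CPM, and 13 genes of the study's question. Not all genes that meet this rule are reported. The comparison, gene lists and named genes were chosen with earlier results of these data known.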

Additional observations from a re-analysis of the deposited data

Results flagged for a closer look

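Each value below belongs to a mouse that stood apart from the other 3 of its group, by a gap over the group's range above Dixon's 95% critical value for 4 samples. Of 124 groups of 4 values tested, 14 had such a mouse. Chance marks about 1 in 20 groups where values are independent and normally distributed. CPM of genes from the same mice need not be either, so the 14 are not read as an excess.

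In N, mouse 4 was high for 3 genes. Igfals, which stabilises IGF in plasma, was at 3764 CPM against 1238 to 1573 CPM in the others. Lcat, the cholesterol acyltransferase, was at 8452 CPM against 2571 to 3498 CPM, and the convertase Pcsk6 at 252 CPM against 44.8 to 75.4 CPM. N mouse 8 was high for the scramblase Plscr1, at 188 CPM against 74.7 to 84.0 CPM, and for the urinary protein Mup21, at 1820.0 CPM against 638 to 711 CPM.

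In HFW, mouse 34 was high for Col1a2, a type I collagen chain, at 721 CPM against 117 to 158 CPM. The same mouse was high for Pck1, of glucose synthesis, at 904 CPM against 393 to 474 CPM, and low for the apolipoprotein gene Apoa2, at 39604 CPM against 69115 to 73681 CPM. HFW mouse 36 was high for Mup21, at 671 CPM against 210.3 to 255 CPM, and for Shmt2, at 3415 CPM against 2348 to 2529 CPM. HFW mouse 38 was high for Pcsk6, at 168 CPM against 78.6 to 85.0 CPM, and for the aminotransferase gene Gpt2, at 210.3 CPM against 138 to 144 CPM. HFW mouse 40 was high for Acly, at 372 CPM against 158 to 183 CPM, and for Dus1l, at 765 CPM against 533 to 550.4 CPM.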

How the results depend on the processing

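The number of genes called in HFW minus N, 0 by edgeR, was 6 by DESeq2's Wald test, 11 with no expression filter, 1 with the N and HFW libraries fitted alone, and 0 to 7 when each mouse was left out in turn, the 7 without N mouse 8. The 7 were Acox2, Tsku, Slc13a3 and Plscr1, higher, and Kdelr1, Igfals and Ccdc107, lower. The other 16 alternatives gave 0. The number called in NW minus HF, 350, stayed within 1.5 times under the 19 alternatives run, at 280.0 to 338 when a mouse was left out. The HFW minus HF difference in distance to N, 0.0234, ran from -0.0727 to 0.0921 when a mouse was left out and was -0.0221 without N mice 4 and 8. Among 60 named genes, 13 values changed sign: Pck1 was -0.040 in thinned libraries, -0.10 without N mouse 4, -0.041 without N mouse 5 and -0.24 without HFW mouse 34, and reached 0.49 without N mouse 8. Pcsk6 was 0.15 by limma-voom, 0.68 without N mouse 4, 0.64 without N mice 4 and 8, and 0.055, 0.024 and 0.010 without HFW mice 34, 36 and 40, with -0.36 the lowest with a mouse left out. With a mouse left out, Srebf1 ran from -0.51 to 0.10 (without N mouse 5), Col1a2 from -0.52 (without HFW mouse 34) to 0.85, and Lars2 from -0.080 (without N mouse 4) to 0.51. In each case the cause was not tested. Of the values of list medians under the alternatives, 319 moved by less than the spread and 41 by more. Each median covers the members that passed the filter under that alternative, so its genes could differ.

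No paired analysis was possible because mouse numbers never repeat across feeding groups. Precision limits the comparison, and the parts of depth and of the spread between mice in it were not separated: 593 of 1046 genes had an interval reaching past 2-fold, and of 20826 symbols 1046 passed the filter.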

Other observations

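Some transcripts lay below the filter of the test and are given as tags per mouse, N mice 4, 5, 7 and 8 first and HFW mice 34, 36, 38 and 40 second. Saa2, an acute phase serum amyloid, had 0, 0, 0 and 0 tags in N and 16, 2, 3 and 4 in HFW. Mt2, a metal-binding metallothionein, had 0, 1, 1 and 1 tags in N and 31, 2, 2 and 6 in HFW. HFW mouse 34 held most of the tags of both genes. In the mice of the other groups Saa2 had 0 to 1 tags in NW and 0 to 3 in HF, while Mt2 had 1 to 15 in NW and 2 to 12 in HF. With no filter, edgeR called 11 genes, 3 higher and 8 lower in HFW. The higher were Mt2, Saa2 and the potassium channel gene Kcnn4. Kcnn4 was named after its values were seen and had 0, 2, 3 and 6 tags in N and 33, 7, 17 and 6 in HFW. The lower were Kdelr1, Igfals, Mup21, Cdc34, Cyp2c29, Sephs2, Slc10a1 and Lcat.

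Fdps, an enzyme of the cholesterol pathway, summed to 3 tags in N and 26 in HFW, with 0, 3, 9 and 14 in the HFW mice. Fabp1, the liver fatty acid binding protein, summed to 5 tags in N and 24 in HFW. Vsig4, a complement receptor of Kupffer cells, summed to 26 tags in N, 11 in HFW, 51 in HF and 3 in NW. The 2 Kupffer cell markers that passed the filter did not share this fall. C1qa summed to 137 tags in N and 161 in HFW, and C1qc to 41 and 39. The sums of Fdps, Fabp1 and Vsig4 were not tested on their own. These genes were picked from the list members below the filter, and a group sum does not show whether 1 mouse held most of the tags. Other cholesterol genes below the filter went either way, with Lss at 18 tags in N and 33 in HFW and Srebf2 at 14 and 10.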
